A study of Mus musculus with 4 samples.

Results

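The mitochondrial ribosomal proteins are the nuclear-encoded protein subunits of the ribosome inside mitochondria. Their genes were selected by symbol, as all genes on the array whose symbol begins with Mrpl (large subunit) or Mrps (small subunit) followed by a digit, with pseudogenes left out. This gave 76 genes, 47 of the large and 29 of the small subunit, among 19287 genes tested. They had 106 probes, and the brightest probe stood for each gene. All 76 lay above the detection limit (each array's 20th percentile of intensity) on all 4 arrays, so no member was lost to the filter on dim probes.

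The study profiled LSK cells, the lineage-marker-negative, Sca-1-positive, Kit-positive fraction of bone marrow that holds hematopoietic stem and progenitor cells. The cells were sorted from C57Bl/6J mice with a knockout of Ezh1, a histone methyltransferase of the Polycomb group, and from control mice of the same strain, with 2 arrays of each. No source used here gives the allele, the deleted part of Ezh1, the genotype of the controls or the ages. Nor does any say whether replicates were separate animals or pools, so each p-value reflects no more than the spread among these 4 samples, and that spread may be technical. RNA was amplified as a whole transcriptome before one-colour hybridisation.

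The mitochondrial ribosome translates the few messenger RNAs of the mitochondrial genome, all of which encode membrane subunits of the oxidative phosphorylation complexes. Its ribosomal RNAs come from mitochondrial DNA, while every protein subunit is made in the cytosol and imported. Part of the subunits descend from those of the bacterial ribosome and the others were added during the evolution of mitochondria.

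Intensities were scaled by subtracting each array's 75th percentile on the log2 scale. For the Ezh1 knockout arrays that percentile was an intensity of 1095 and 1690, against 1594 and 1531 for the control arrays. Ezh1 had 4 probes, and 3 of them, to the RefSeq transcript, had log2 fold changes between -0.09 and 0.27. The fourth, to another annotated transcript, read 210.8 and 90.7 in the knockout against 413.6 and 300.9 in the controls, with a log2 fold change of -1.15 (95% interval -3.22 to 0.92). Since the deleted part is not given, these probes check nothing about the labels. The stem and progenitor markers that define the sort were present, with Kit at 6793 and 8269.9 on knockout and 13819 and 9824 on control arrays, and all 10 markers of the list above the detection limit on every array. Fewer cells of a type and less RNA per cell cannot be told apart in such bulk samples.

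Promoter sequences show how the genes are built at their start sites. RefSeq promoters of the GRCm38.p6 assembly, each 300 bases from 250 before to 50 after the start, were matched by symbol for 67 of the 76 genes, which gave 73 promoters. The windows were searched on both strands for CCGGAAG, a core bound by ETS factors such as the nuclear respiratory factor 2 subunit Gabpa, for the GCGCATGC of nuclear respiratory factor 1, whose matches can overlap one another, and for AAGATGGC, a core bound by YY1. Below are 200 bases (150 before to 50 after the start) for the member with the lowest and the one with the highest log2 fold change in each subunit, among genes with a single promoter in the table, with motif matches in capitals.
Mrpl32, chr13:14612988-14613187, minus strand: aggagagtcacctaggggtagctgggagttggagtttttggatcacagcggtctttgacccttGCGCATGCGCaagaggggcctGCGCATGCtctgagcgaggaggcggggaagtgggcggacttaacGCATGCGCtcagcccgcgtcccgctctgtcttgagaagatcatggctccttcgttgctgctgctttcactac
Mrpl30, chr1:37890327-37890526, plus strand: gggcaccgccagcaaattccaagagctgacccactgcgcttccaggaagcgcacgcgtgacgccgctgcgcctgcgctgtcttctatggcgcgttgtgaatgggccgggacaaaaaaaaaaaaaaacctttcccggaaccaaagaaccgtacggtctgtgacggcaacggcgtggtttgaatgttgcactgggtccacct
Mrps17, chr5:129715347-129715546, plus strand: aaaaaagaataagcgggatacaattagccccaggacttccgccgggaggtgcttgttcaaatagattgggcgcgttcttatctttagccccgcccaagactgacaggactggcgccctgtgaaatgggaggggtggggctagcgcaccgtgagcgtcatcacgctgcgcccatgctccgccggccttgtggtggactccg
Mrps11, chr7:78782981-78783180, plus strand: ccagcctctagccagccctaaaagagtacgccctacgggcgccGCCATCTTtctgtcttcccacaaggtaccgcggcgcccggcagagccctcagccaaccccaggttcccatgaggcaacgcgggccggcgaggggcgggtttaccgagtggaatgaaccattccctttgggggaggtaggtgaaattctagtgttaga
The Mrpl32 window holds NRF1 matches, the Mrps11 window a YY1 match, and those of Mrpl30 and Mrps17 none of these letters.

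The ETS core was in 24 of the 73 member promoters (32.9%), against 8.86% of all 32851 promoters in the table. The NRF1 motif was in 8 (11%), against 2.71% of all promoters, and the YY1 motif in 12 (16.4%), against 2.75%. Member promoters were also richer in bases G and C, with a median of 58.3% against 52.7%, and held a median of 21.0 CpG dinucleotides against 7.0. The ETS and NRF1 letters each contain a CpG. The promoters compared were not matched for CpG count, so how much of the higher shares goes with it was not tested. Large-subunit promoters held the ETS core in 28.3%, NRF1 in 15.2% and YY1 in 13.0%, and small-subunit promoters in 40.7%, 3.7% and 22.2% in the same order. Of the genes matched, 19 of 24 with the ETS core were lower in the knockout (median log2 fold change -0.10), as were 34 of 43 without it (-0.16). The 8 genes with NRF1 had a median of -0.26 (7 lower) and the 59 without it -0.10 (46 lower). The 12 with YY1 had -0.27 (9 lower) and the 55 without it -0.10 (44 lower). These are descriptions of letters in a window, and no test was run on them. Mrps11 and Mrpl46 lie head to head on chromosome 7 with 41 bases between them, the closest pair of members, the next being Mrpl10 and Mrpl45 on chromosome 11 at 265709 bases.

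Most mitochondrial ribosomal protein genes had lower signal in the knockout, by a small amount. Of the 76 genes, 62 had a log2 fold change (knockout over control) below 0 (81.6%), compared with 47.9% of all genes tested. The median was -0.16, a 1.12-fold difference, with quartiles of -0.31 and -0.03 and a range of -0.69 to 0.44, compared with 0.03 over all genes. Since 65 members lay above the 75th percentile on every array, genes above the 50th percentile on every array are the closer comparison, and of those 58.5% were lower, with a median of -0.08.

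No single gene passed a test. In limma with Benjamini-Hochberg adjustment over 43759 probes, 0 of 76 members had an adjusted p under 0.05, as did 0.0% of all probes, and adjusted p ran from 0.78 to 0.997 over the members. At an unadjusted limma p under 0.05, 0 of the members were called by their brightest probe, against 4.71% of all genes and 5.74% of all probes. Dimmer probes of Mrps14 (limma unadjusted p = 0.00502), Mrpl9 (0.00805) and Mrpl47 (0.0421) were under that threshold. All 76 intervals of 95% included no change, with a median half-width of 0.82 log2 units (1.76-fold). These intervals are not adjusted over probes. With 2 arrays a group, the adjusted test therefore needed a difference larger than that for a typical member. No member differed 2-fold or more, and 4 of 76 were at least 1.5-fold lower, against 0 at least 1.5-fold higher. Over all genes the 8th percentile of the log2 fold change was -0.581 and the 78th was 0.592, both close to 1.5-fold. The 4 lower members were therefore no excess over all genes.

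Both knockout arrays lay below both controls for 29 of the 76 members (38.2%), compared with 21.0% of all genes and 26.5% of those above the 50th percentile. Both lay above both controls for 5 members (6.58%), compared with 17.5% of all genes and 16.2% of the brighter ones. The 5 were Mrpl30, Mrpl45, Mrpl48, Mrps11 and Mrps21.

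The lower signal rested on 1 control array. Relative to each gene's mean over the 4 arrays, the members' median deviation was -0.10 and -0.08 on the knockout arrays, against 0.25 on control replicate 1 and -0.09 on control replicate 2. Control replicate 2 therefore stood with both knockout arrays, and control replicate 1 stood apart from the other arrays. It was the highest array for 58 of the 76 members, and control replicate 2 for 1. Over all genes the medians were -0.01, 0.02, 0.02 and 0.03 in the same order. Genes above the 50th percentile on every array also had their highest median scaled log2 signal on control replicate 1. It was 0.62 and 0.51 in the knockout, against 0.75 and 0.57 in the controls. For the members it was 1.39 and 1.43, against 1.64 and 1.43. Control replicate 1 had the lowest 20th percentile of intensity, 12.4, against 22.8 and 87.3 in the knockout and 57.6 on control replicate 2.

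**Figure D1:**
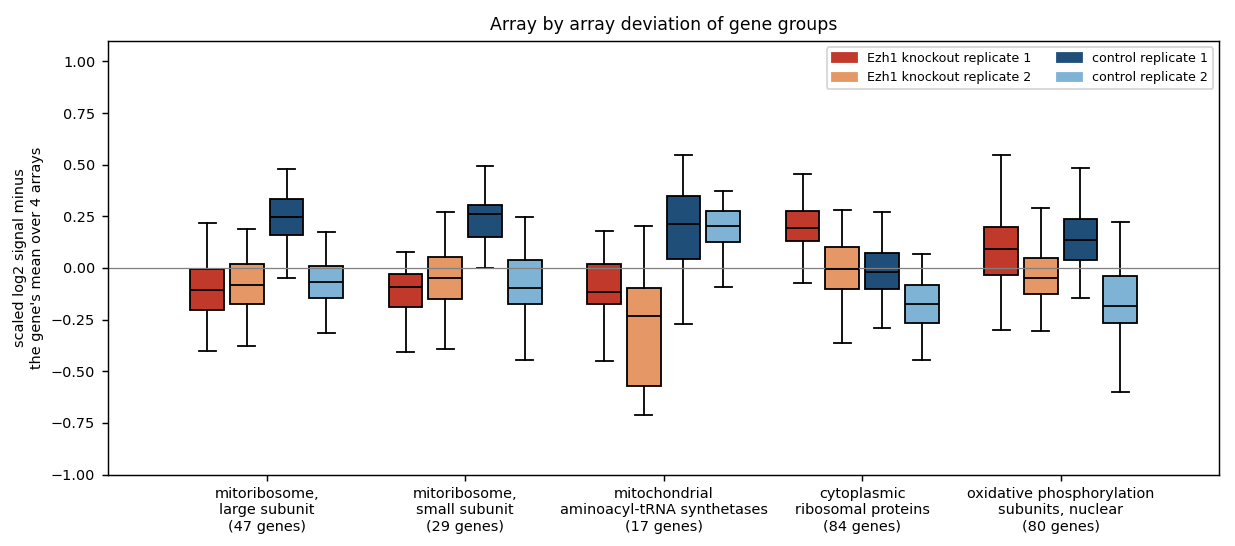
Deviation of the scaled log2 signal from each gene's mean over 4 arrays (vertical axis), by gene group and array; boxes span the quartiles with the median as a line, whiskers reach the farthest gene within 1.5 box lengths, and genes beyond are not drawn. For both mitoribosomal subunits control replicate 1 (medians 0.25 and 0.26) stands above the other arrays (-0.11 to -0.05), while for the mitochondrial aminoacyl-tRNA synthetases both knockout arrays stand below both controls.

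Single pairs of arrays show the same split. Against control replicate 1, the members' median difference was -0.33 for knockout replicate 1 (67 of 76 lower) and -0.34 for knockout replicate 2 (61 lower). Against control replicate 2 the medians were -0.02 (40 lower) and 0.00 (38 lower). The difference between the controls themselves, replicate 2 minus replicate 1, was -0.31 with 73 of 76 members lower, larger than the median of -0.16 between genotypes.

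Without control replicate 1, 38 of 76 members were lower in the knockout, with a median of 0.00, while 54.9% of all genes were lower, with a median of -0.05. Both knockout arrays lay below control replicate 2 for 30 members (39.5%), against 30.5% of all genes, and above it for 28 (36.8%), against 27.9%. Without control replicate 2, 67 members were lower, with a median of -0.32. Leaving out a knockout array gave medians of -0.16 (57 lower, without replicate 1) and -0.19 (58 lower, without replicate 2).

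**Figure D2:**
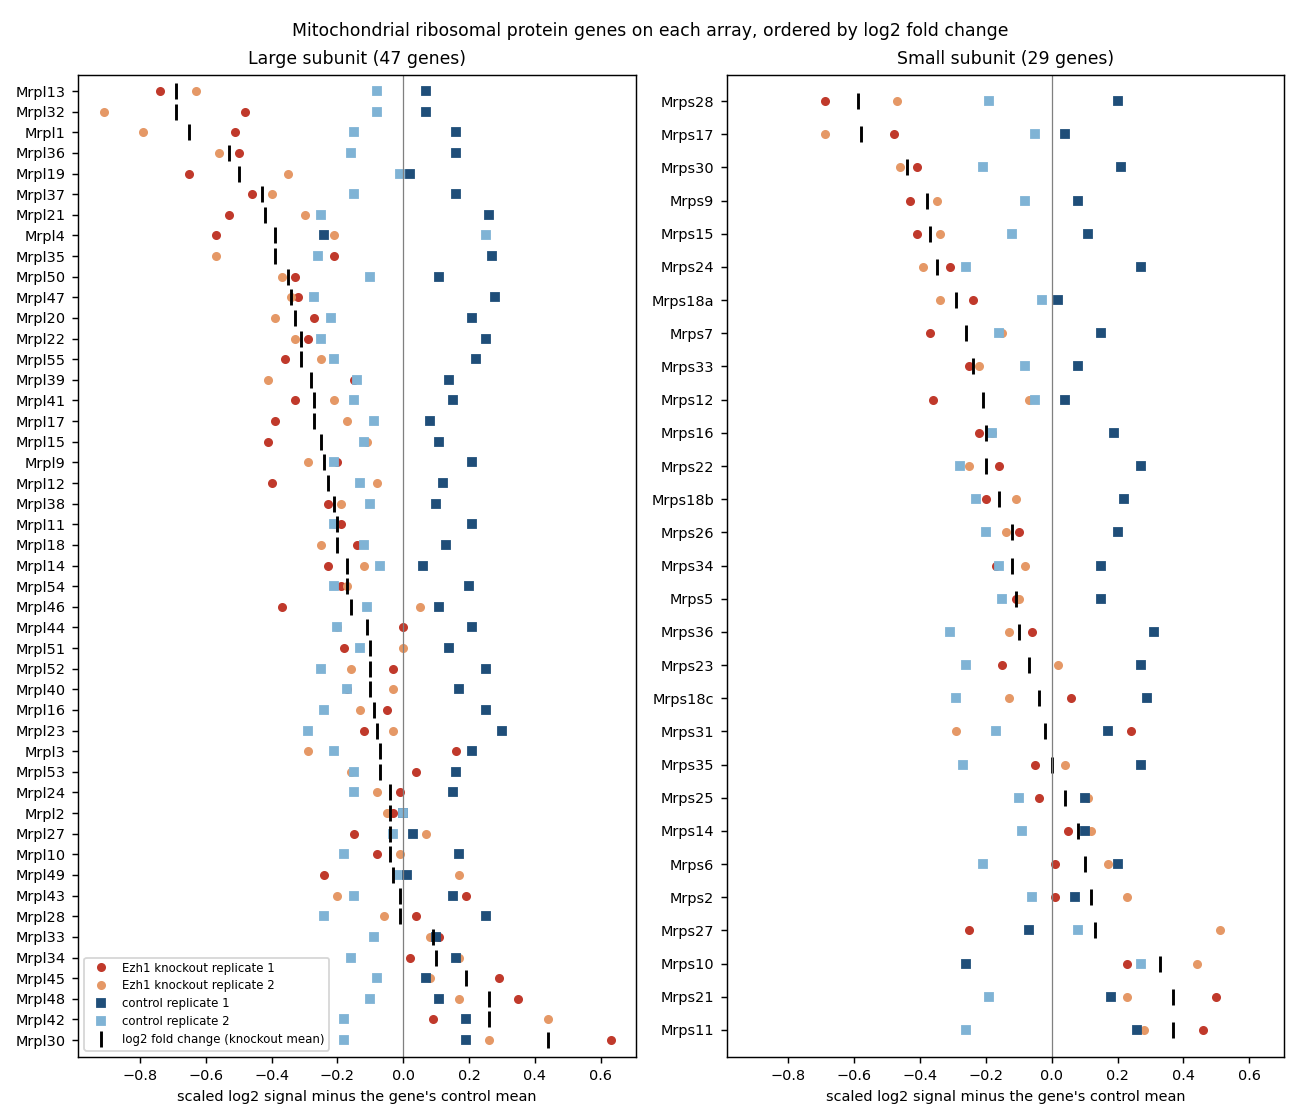
Scaled log2 signal of each of the 76 genes on each array minus the gene's control mean (horizontal axis), large subunit left and small subunit right, ordered by log2 fold change, which the black bar marks as the knockout mean. Control replicate 1 lies to the right of the other arrays for most genes. Control replicate 2 lies to the right of both knockout arrays for 30 genes, as near the top. It lies to the left of both for 28, as for most genes near the bottom, and between them for the rest.

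The large and small subunits followed the same course over the arrays. In the large subunit 41 of 47 genes were lower (87.2%), with a median of -0.17, and in the small subunit 21 of 29 (72.4%), with a median of -0.12. The difference of these medians, large minus small, was -0.05. On single arrays, the difference of the median deviations from the gene means, large minus small, was -0.01 and -0.03 in the knockout, against -0.02 and 0.03 in the controls, so the groups overlapped. Assigning genes by their place in the mammalian mitoribosome, where the proteins of Mrps18a and Mrps30 belong to the large subunit and that of Mrps36 to neither, gave -0.20 for 49 genes and -0.11 for 26. Without control replicate 1 the medians were -0.04 for the large subunit (27 of 47 lower) and 0.07 for the small subunit (11 of 29 lower).

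The 48 genes with a bacterial homologue had a median of -0.21 (39 lower), and in 22 of them (45.8%) both knockout arrays lay below both controls, compared with 21.0% of all genes and 26.5% of those above the 50th percentile. The 28 mitochondria-specific genes had a median of -0.10 (23 lower), with 7 below both controls (25%), a share near those over all genes. The difference between these sets was not tested. The medians without control replicate 1 were -0.06 (29 of 48 lower) and 0.07 (9 of 28 lower).

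Within the large subunit the 5 lowest genes encode homologues of bacterial ribosomal proteins. So do 30 of all 47 large-subunit genes, among them Mrpl30, the highest, so the trait is not particular to the lowest genes. Mrpl13, which had the smallest p among the members, had scaled log2 values of 1.26 and 1.37 in the knockout, against 2.07 and 1.92 in the controls. Both knockout arrays lay below both controls, and the means were 1.31 ± 0.08 in the knockout and 2.00 ± 0.11 in the controls (SD, n = 2 each). The log2 fold change was -0.69 (95% interval -1.41 to 0.04, limma unadjusted p = 0.0585, adjusted p = 0.78), and it was -0.61 without control replicate 1.

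Mrpl32, whose precursor is cleaved by the mitochondrial m-AAA protease before assembly, had scaled log2 values of 0.16 and -0.27 in the knockout, against 0.71 and 0.56 in the controls. Its log2 fold change was also -0.69 (95% interval -1.54 to 0.15). Mrpl1, of the stalk where the deacylated transfer RNA leaves, had 0.99 and 0.71 in the knockout, against 1.66 and 1.35 in the controls, for a log2 fold change of -0.65. For both genes the groups did not overlap, and without control replicate 1 the log2 fold changes were -0.62 and -0.50.

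Mrpl36, a small zinc-binding protein, had scaled log2 values of 1.16 and 1.1 in the knockout, against 1.82 and 1.5 in the controls (log2 fold change -0.53). Mrpl19 had -0.73 and -0.43, against -0.06 and -0.09 in the controls (-0.50). Mrpl37, which has no bacterial homologue, had -0.12 and -0.06, against 0.50 and 0.19 in the controls (-0.43). In each of these the knockout arrays were below both controls, and control replicate 1 was the higher control. Without it the log2 fold changes were -0.37 for Mrpl36, -0.49 for Mrpl19 and -0.28 for Mrpl37.

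At the other end of the large subunit, Mrpl30 had scaled log2 values of 1.79 and 1.42 in the knockout, against 1.35 and 0.98 in the controls, for a log2 fold change of 0.44 (95% interval -0.45 to 1.33). Its second probe, to another transcript, gave -0.06. Mrpl48 had 2.74 and 2.56 in the knockout, against 2.50 and 2.29 in the controls (0.26). Mrpl45, which lies at the exit of the tunnel and tethers the ribosome to the inner membrane, had 1.37 and 1.16, against 1.15 and 1.0 in the controls (0.19), so its groups were nearly touching.

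Mrpl42 had 1.13 and 1.48 in the knockout, against 1.23 and 0.86 in the controls (log2 fold change 0.26), with overlapping groups. The groups overlapped too for Mrpl34 (0.10), Mrpl51 (-0.10) and Mrpl24 (-0.04). Mrpl33, among the 5 members with the highest mean signal, had intensities of 12833.5 and 19339.8 in the knockout, against 18491 and 15575.6 in the controls, and a log2 fold change of 0.09 after scaling.

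In the small subunit, Mrps28 had scaled log2 values of 0.92 and 1.14 in the knockout, against 1.81 and 1.42 in the controls, for a log2 fold change of -0.59 (95% interval -1.43 to 0.25). Mrps17, a homologue of a bacterial protein that binds the ribosomal RNA early in assembly, had 1.82 and 1.61, against 2.34 and 2.25 in the controls (-0.58, 95% interval -1.32 to 0.16). Both genes had knockout arrays below both controls, and a second probe of Mrps17 gave -0.49. Without control replicate 1 the log2 fold changes were -0.39 for Mrps28 and -0.54 for Mrps17.

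Mrps30 had scaled log2 values of 0.95 and 0.90 in the knockout, against 1.57 and 1.15 in the controls (log2 fold change -0.44). Mrps9 followed at -0.38, Mrps15 at -0.37 and Mrps24 at -0.35, all with both knockout arrays below both controls. In all 4 of these genes control replicate 1 was the higher control. Without it the log2 fold changes were -0.23 for Mrps30, -0.30 for Mrps9, -0.25 for Mrps15 and -0.09 for Mrps24.

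The highest genes of the small subunit were Mrps11 and Mrps21. Mrps11 had scaled log2 values of 1.63 and 1.45 in the knockout, against 1.43 and 0.91 in the controls, for a log2 fold change of 0.37 (95% interval -0.53 to 1.27). Mrps21 had 2.76 and 2.49, against 2.44 and 2.07 in the controls (0.37). The lower control was replicate 2 in both genes, and the lowest knockout array stood close to control replicate 1. The log2 fold changes without control replicate 1 were 0.63 for Mrps11 and 0.56 for Mrps21, and without control replicate 2 they were 0.11 and 0.18. Mrpl46, the head-to-head neighbour of Mrps11, had -0.50 and -0.08, against -0.02 and -0.24 in the controls (-0.16), with overlapping groups.

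Mrps10 had the highest intensity of any member, at 39923.6 and 71493 in the knockout, against 41457.8 and 57431.2 in the controls, and a log2 fold change of 0.33 with overlapping groups. Mrps27, a pentatricopeptide repeat protein, had scaled log2 values of -1.88 and -1.12 in the knockout, against -1.70 and -1.55 in the controls (0.13), so the controls lay between the knockout arrays. Mrps2 (0.12) and Mrps6 (0.10) were also above 0.

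The Mrps18 genes are paralogues whose proteins take different places in the ribosome. Mrps18a had scaled log2 values of 1.65 and 1.55 in the knockout, against 1.91 and 1.86 in the controls (log2 fold change -0.29), with no overlap. Mrps18b had 2.60 and 2.69, against 3.02 and 2.57 in the controls (-0.16), and Mrps18c had 3.36 and 3.17, against 3.59 and 3.01 (-0.04). In Mrps18b and Mrps18c both knockout arrays lay between the controls, and without control replicate 1 the log2 fold changes were 0.07 and 0.26. Mrps36, whose protein is a component of the 2-oxoglutarate dehydrogenase complex, had 0.87 and 0.80, against 1.24 and 0.62 in the controls (-0.10), both knockout arrays between the controls, and 0.21 without control replicate 1.

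Several genes had probes that did not move together. Of 25 members with more than 1 kept probe, 10 had probes on both sides of 0. A dim second probe of Mrpl9, to another transcript, had intensities of 184.9 and 398.7 in the knockout, against 87.6 and 107.7 in the controls. That is 3.21-fold higher in the knockout (log2 fold change 1.68, 95% interval 0.75 to 2.62, limma adjusted p = 0.78), whereas the brightest Mrpl9 probe gave -0.24. A dim probe of Mrps14, above the detection limit on 2 of 4 arrays, went the other way. It had 16.3 and 26.7 in the knockout, against 65.9 and 75.7 in the controls (-1.56, 95% interval -2.31 to -0.80, limma adjusted p = 0.78). The brightest Mrps14 probe gave 0.08. The 4 probes of Mrpl47 gave -0.34, -0.74, -0.04 and 0.20. These probes were singled out after their values were seen.

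In the authors' deposited table the same 62 members were listed as down and 14 as up. Its p-value was under 0.05 for 3 of the 76 members. In the authors' deposited table these were Mrpl13 (ratio 1.61, p = 0.0182), Mrps17 (1.5, p = 0.035) and Mrps18a (1.22, p = 0.0356), all listed as down. The table's test is not named. The share of all genes under 0.05 in that table was not counted. Whether the 3 members are more than among all genes was therefore not tested.

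Other genes of mitochondrial translation followed mostly the same pattern across arrays. Of 6 subunits that carry other symbols, such as Dap3 and Ptcd3, 5 were lower (median -0.21), and 4 without control replicate 1 (-0.06). Of 20 assembly factors measured, 17 were lower (median -0.20), and 14 without control replicate 1 (-0.08). Of 16 translation factors, 14 were lower (median -0.19), and 8 without control replicate 1 (-0.02). None of these lists had a member past the adjusted threshold in limma.

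A few of these genes lay outside the range of the members. Mettl17, a factor of small-subunit assembly, had intensities of 777.0 and 1033.6 in the knockout, against 427.4 and 443.3 in the controls, 2.36-fold higher (log2 fold change 1.24, 95% interval 0.50 to 1.98, limma adjusted p = 0.78). Fastkd2, a protein of mitochondrial RNA granules, had 26.4 and 36.8, against 113.9 and 100.4 in the controls, and was above the detection limit on 3 of 4 arrays. Mtif2, the initiation factor that places the first transfer RNA, had intensities before scaling of 35001.7 and 53144 in the knockout, against 31861 and 36192.1 in the controls. After scaling both knockout arrays lay above both controls (log2 fold change 0.54). Tufm, the elongation factor, had a log2 fold change of -0.11 with overlapping groups.

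The mitochondrial aminoacyl-tRNA synthetases, which charge the transfer RNAs used by this ribosome, were lower without resting on control replicate 1. Of 17 genes, 15 were lower (median -0.39), and in 10 (58.8%) both knockout arrays lay below both controls, compared with 21.0% of all genes. Their median deviations were -0.12 and -0.23 on the knockout arrays, against 0.21 and 0.20 on the control arrays. Without control replicate 1, 16 of 17 were lower (-0.44), and leaving out the other arrays in turn gave medians from -0.39 to -0.26.

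Yars2, the tyrosine enzyme, had intensities of 730.7 and 961.7 in the knockout, against 1895.8 and 1515.6 in the controls (log2 fold change -0.82, 95% interval -1.60 to -0.03, limma unadjusted p = 0.0454, adjusted p = 0.78). Vars2, the valine enzyme, had 364.8 and 389.1, against 855.8 and 680.8 in the controls (-0.82). Rars2, the arginine enzyme, had 1356.6 and 1562, against 2785.9 and 2720.0 in the controls (-0.72). In all 3 the knockout arrays lay below both controls, and no member of the list passed the adjusted threshold.

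**Figure D3:**
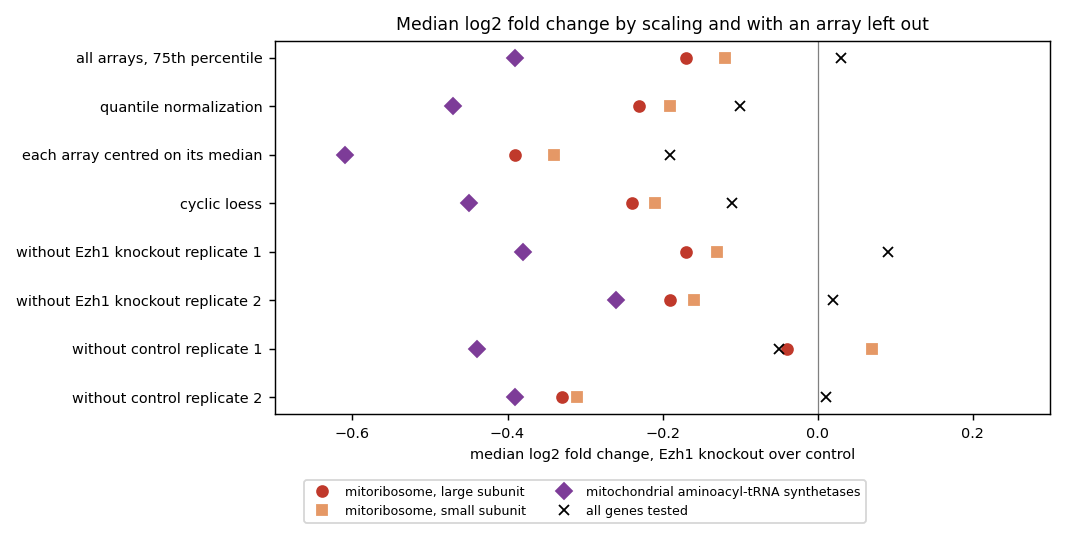
Median log2 fold change (horizontal axis, knockout over control) of both mitoribosomal subunits, the mitochondrial aminoacyl-tRNA synthetases and all genes tested, for each scaling and with each array left out. Without control replicate 1 the subunits stand at -0.04 and 0.07, near all genes at -0.05, and the synthetases at -0.44.

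Of 10 genes of mitochondrial DNA maintenance and transcription, 6 were lower (median -0.16), and 5 without control replicate 1 (0.04). Tfam, which packages mitochondrial DNA and starts its transcription, had a log2 fold change of 0.07, and Polrmt, the mitochondrial RNA polymerase, 0.19. Polg2, the accessory subunit of the DNA polymerase, had 0.72, and Mterf, a transcription termination factor, -0.61. Of 9 nuclear regulators of mitochondrial genes, 7 were lower (median -0.19), and 6 without control replicate 1 (-0.19). Nrf1 had -0.34, Gabpa -0.19, its partner Gabpb1 -0.49 and Myc, an activator of ribosome biogenesis, -0.17, each with limma adjusted p of at least 0.78.

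Neither the cytoplasmic ribosomal proteins nor the nuclear-encoded oxidative phosphorylation subunits were lower under the 75th percentile scaling. Both lists were matched by gene symbol alone. They therefore hold genes such as Cox4nb, Rpl7l1 and the dim Rpl10l and Rpl39l, whose place in these complexes was not checked. Of 84 cytoplasmic ribosomal protein genes, 72 were higher (median 0.17), though the median was below 0 under quantile normalization (-0.06), median centring (-0.05) and cyclic loess (-0.09). Of 80 oxidative phosphorylation genes, 49 were higher (median 0.06), and the same 3 scalings gave -0.12, -0.15 and -0.09. The direction of the oxidative phosphorylation genes also turned with the control array, with 62 of 80 higher (median 0.24) without control replicate 1 and 25 of 81 higher (median -0.10) without control replicate 2. For the cytoplasmic ribosomal proteins the medians were 0.28 and 0.12 in the same order. Under those scalings the median of all genes was -0.10, -0.19 and -0.11, and that of the mitochondrial ribosomal proteins -0.21, -0.38 and -0.23, so relative to all genes they stayed lower by 0.11 to 0.19. Under the 75th percentile scaling, that difference was -0.07 with only probes above the 50th percentile of every array. It was 0.05 without control replicate 1. No difference between these groups was tested.

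**Figure D4:**
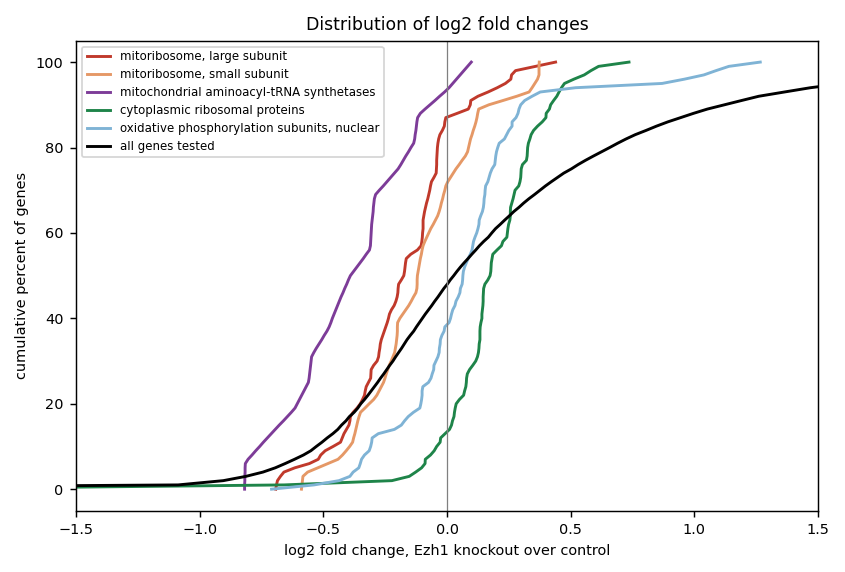
Cumulative percent of genes (vertical axis) by log2 fold change, knockout over control (horizontal axis), for both mitoribosomal subunits, the mitochondrial aminoacyl-tRNA synthetases, the cytoplasmic ribosomal proteins, the oxidative phosphorylation subunits and all genes tested. At a log2 fold change of 0, 87.2% of large-subunit and 72.4% of small-subunit genes lie to the left, compared with 47.9% of all genes; genes beyond a size of 1.5 on either side lie off the axis.

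Markers of other blood cells differed between the groups and between the controls. All 15 neutrophil markers were higher in the knockout, with a summed intensity, in multiples of each array's 75th percentile, of 160 and 140, against 64.5 and 70.9 in the controls, and all 10 B-lineage markers were higher, with sums of 9.84 and 8.34, against 5.59 and 5.30. T and NK markers were higher in 6 of 7 genes, with sums of 2.37 and 1.99, against 1.11 and 1.04 in the controls. Many of these markers were dim, with only 3 B-lineage and 2 T and NK markers above the 50th percentile on every array. The T and NK median log2 fold change was 0.98, but 0.54 under quantile normalization and 0.39 under cyclic loess. For the B-lineage markers it was 1.53, 1.12 and 1.11 in the same order. Erythroid markers, like the mitochondrial ribosomal proteins, were highest on control replicate 1, with median deviations of 0.11 and -0.28 in the knockout, against 0.46 and -0.36 in the controls, and sums of 129 and 125, against 142 and 109. Of the 8 erythroid markers, 5 were lower and 3 higher in the knockout, and 0 had both knockout arrays below or above both controls. Alas2, the first enzyme of heme synthesis in red cells, was picked after its values were seen. Its intensities before scaling were 5326 and 5974 in the knockout, against 15663 and 4947 in the controls. This gene does not stand for the list, whose markers were split in direction. Stem and progenitor (0.21) and proliferation (0.11) markers also had their highest median deviation on control replicate 1, while neutrophil, B-lineage and T and NK markers had their lowest there. Stem and progenitor markers summed to 54.5 and 42.6, against 60.0 and 49.9, and proliferation markers to 75.6 and 67.1, against 74.8 and 64.1. The part of cell makeup in the values of the mitochondrial ribosomal protein genes was not tested.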

How the data were processed

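Total RNA of sorted LSK cells was amplified and hybridised to 4 one-colour arrays, 2 for Ezh1 knockout and 2 for control, per the labels' protocols. Agilent Feature Extraction gave the probe intensities (per the submitters' processing notes), and the deposited table holds 55677 intensities per array on a linear scale with no between-array scaling. A deposited comparison table gives gene symbols, an absolute fold ratio, its direction and a p-value computed by the authors, and log2 of that ratio differed from the fold changes computed here by at most 0.00126 for the members' probes. The deposited series matrix holds log-scale values whose column medians were -2.59 and -2.05 for knockout and -3.34 and -2.54 for control. Under the same probe names they correlated with the intensities at r between 0.069 and 0.091, so their scale, centring and direction stay unknown and they were not used.

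Intensities below 1 were set to 1, log2 was taken and each array's 75th percentile subtracted. A probe was kept if it exceeded its array's 20th percentile throughout at least 1 group (43759 probes), and the brightest kept probe stood for a gene. Groups were compared with limma 3.58.1 (lmFit, eBayes; R 4.3.3) with Benjamini-Hochberg adjustment over all kept probes, a residual df of 2 and a prior df of 1.78. The procedure was tested on simulated data. An exact two-sided permutation test of 2 arrays against 2 cannot give a p below 0.333, so none is given, and the number of arrays limits the precision. Replicate numbers are shared between groups but no label says that they pair samples. The deviations of equal-numbered arrays correlated at 0.69.

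Named members were the 6 highest and 6 lowest fold changes of each subunit, the 5 brightest, the 4 smallest p, the Mrps18 paralogues and Mrps36. From each of the other lists up to 4 genes by smallest p could be named, with Myc, Nrf1, Gabpa, Tfam, Tufm and Polrmt always. Further genes were named after their values were seen: Mrpl46, Dap3, Ptcd3, Alas2, Kit, Mrpl9, Mrpl47 and Mrps14. The members and all gene lists were chosen with earlier results of these data known. Promoters are those of RefSeq (GRCm38.p6).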

Additional observations from a re-analysis of the deposited data

How the results depend on the processing

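No probe passed the adjusted limma threshold under any of the alternatives fitted (the mean of all probes of a gene was not tested), with 2513 at an unadjusted p under 0.05 in the fit reported. The members' median log2 fold change was -0.38 when each array was centred on its median, against -0.16 as reported, and all genes then had -0.19. Under that centring 19 members had both knockout arrays below both controls (25%, all genes 16.6%) and 1 above (1.32%, all genes 11.3%). Quantile normalization gave 40 below (52.6%, all genes 27.2%) and cyclic loess 42 (55.3%, all genes 27.8%), with 3 above (3.95%, all genes 13.8%). Leaving out each array in turn gave members' medians from -0.32 to 0.00, with 38 to 67 members lower. The members below all remaining controls then numbered 30 to 58 (39.5% to 76.3%, all genes 29.5% to 38.9%), and those above 6 to 28 (7.89% to 36.8%, all genes 27.9% to 43.2%). The members' median minus that of all genes ran from -0.33 to 0.05, and it was above 0 only without control replicate 1. Large minus small subunit ran from -0.10 to -0.02 with an array left out, and was -0.03 under cyclic loess and -0.08 with genes assigned by position. With a replicate block the median stayed at -0.16, and 3 of 76 members had an unadjusted p under 0.05, while 18.5% of all genes did. Equal numbers in the labels are not said to pair the samples. With only probes above the 50th percentile of every array, 4 of 75 members did, and 8.72% of genes. Of 360 values of the 30 named members under the alternatives, 339 lay within the spread between replicates and 21 beyond it, with at most 6 sign changes (median centring). The cause of these shifts was not tested. The deposited series matrix was not run, since its values could not be matched to probes. The count of members lower and the difference from all genes were added after seeing the data.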
